A study of Mus musculus with 107 samples.

Results

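Untreated tumors collected on day 8 (NT) were compared with treatment-naive tumors of about 100 mm3 (Base) in 12 mouse syngeneic models. The comparison used every NT and Base tumor, 36 and 35 of the 107 tumors of the series, and the remaining 36 were given lenvatinib (LEN) at 10 mg/kg daily for 7 days and collected on day 8. Each model had 3 tumors per group except treatment-naive MC38, which had 2. Gene expression was measured by RNA sequencing of whole tumors after depletion of ribosomal RNA, and the deposited values are TPM, a measure of transcript abundance corrected for gene length, which add up to a fixed sum per library and keep no sequencing depth. The depth behind each value is therefore unknown.

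All tumors grew under the skin of the flank after transplantation of a mouse cancer cell line, and each model was a single line in a single strain. Hosts were male for BNL 1ME A.7R.1 and Hepa 1-6 and female for the other models. BNL 1ME A.7R.1 (hepatocellular carcinoma), Renca and RAG (renal cell carcinoma), CT26.WT (colorectal cancer), 4T1 and EMT6 (breast cancer) were grown in BALB/cAnNCrlCrlj mice. Hepa 1-6 (hepatocellular carcinoma) was grown in C57L/J, LL/2 (lung cancer) in C57BL/6JCrl, KLN205 (lung cancer) in DBA/2NCrl, MC38 (colorectal cancer) and B16-F10 (melanoma) in C57BL/6NCrl, and MBT2 (bladder cancer) in C3H/HeNCrl. The treatment and time labels give the Base tumors as untreated at baseline and the NT tumors as untreated on day 8, and the groups follow these labels. The protocol text attached to every tumor, Base and NT included, instead speaks of collection on day 8 of lenvatinib dosing, which contradicts them. Day 8 is counted from the start of dosing in the treated groups, so NT tumors were older and had grown for longer, and the time of growth and the collection of the 2 groups as separate sets cannot be told apart. The hour of collection is not given in the sources used here.

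A subcutaneous tumor is a mixture of cancer cells, vessels, fibroblasts, immune cells and host tissue at its edge such as muscle and fat. As a tumor enlarges, oxygen may fall in its interior, and cells then raise genes for glucose uptake, glycolysis and vessel growth through the hypoxia-inducible factors. Most mouse cells also carry a circadian clock, in which Arntl (Bmal1) and Clock activate the Per and Cry repressors, the nuclear receptors Nr1d1 and Nr1d2 and the output factors Dbp and Tef through E-boxes, while Nr1d1 and Nr1d2 repress Arntl and Nfil3 through ROR elements. Fewer cells of a type and less RNA per cell cannot be told apart in these bulk samples.

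Members of the circadian clock were among the 12 protein-coding genes with the largest mean rises and the 12 with the largest mean falls, ranked over called genes that moved the same way in at least 11 of 12 models. The promoters of 4 clock genes that were called are printed as examples of the elements through which clock factors are known to act. They are from RefSeq on GRCm38.p6, with 300 bases each, read 5′ to 3′ on the strand of the gene, and capitals mark the element. Arntl (chr7:113207261-113207560, plus strand) and Nfil3 (chr13:52980990-52981289, minus strand) hold 1 ROR element each, Per3 (chr4:151044616-151044915, minus strand) holds 2 D-boxes, the element bound by Dbp, Tef and Nfil3, and Tef (chr15:81802423-81802722, plus strand) holds 1 E-box.
Arntl: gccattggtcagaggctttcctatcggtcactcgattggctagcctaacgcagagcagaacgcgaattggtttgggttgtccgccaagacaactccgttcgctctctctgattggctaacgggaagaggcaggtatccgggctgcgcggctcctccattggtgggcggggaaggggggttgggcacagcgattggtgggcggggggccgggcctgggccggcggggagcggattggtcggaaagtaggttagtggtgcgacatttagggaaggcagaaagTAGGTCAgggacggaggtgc
Nfil3: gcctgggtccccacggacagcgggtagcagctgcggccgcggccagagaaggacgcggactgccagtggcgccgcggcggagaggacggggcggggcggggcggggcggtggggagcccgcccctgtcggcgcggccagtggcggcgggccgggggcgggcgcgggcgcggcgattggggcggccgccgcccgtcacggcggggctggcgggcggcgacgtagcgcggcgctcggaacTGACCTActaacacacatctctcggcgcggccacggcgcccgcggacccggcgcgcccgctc
Per3: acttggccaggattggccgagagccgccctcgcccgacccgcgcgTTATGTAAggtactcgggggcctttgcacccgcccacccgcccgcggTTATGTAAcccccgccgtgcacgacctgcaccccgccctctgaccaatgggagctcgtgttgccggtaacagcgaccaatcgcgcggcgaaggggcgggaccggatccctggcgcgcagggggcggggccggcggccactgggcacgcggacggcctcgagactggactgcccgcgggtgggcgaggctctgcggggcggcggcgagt
Tef: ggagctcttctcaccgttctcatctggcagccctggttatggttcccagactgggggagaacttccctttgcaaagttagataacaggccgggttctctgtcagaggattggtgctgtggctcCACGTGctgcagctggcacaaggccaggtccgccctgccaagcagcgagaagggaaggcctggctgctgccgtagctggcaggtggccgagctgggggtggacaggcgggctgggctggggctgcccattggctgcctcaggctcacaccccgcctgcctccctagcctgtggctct

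The letters searched were CACGTG for the E-box, TTATGTAA for the D-box and TAGGTCA for the ROR element, on both strands. Of all 32851 RefSeq mouse promoters of this length, 7.15% hold the E-box, 0.938% the D-box and 2.61% the ROR element. Of the 20 genes on the clock list, 17 had a promoter in the table, with 23 promoters between them. The E-box was found in 6 of these promoters (5 genes), the ROR element in 2 and the D-box in 1. A second Tef promoter, at chr15:81811164-81811463, also holds 1 E-box and is not printed. Of the genes with an E-box, Tef and Ciart were called and Per1, Cry1 and Bhlhe41 were not. A match describes the letters only.

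Arntl, the activator of the clock, rose on day 8. Its level over all tumors ran from 2.23 to 15.9 TPM with a median of 6.33 in Base tumors, and from 3.17 to 25.4 TPM with a median of 9.89 in NT tumors. The mean difference over the 12 models was 0.61 on the log2(TPM + 1) scale (SE 0.045, adjusted p = 9.79e-15 by limma), and NT was higher in 12 of 12 models. On this scale the change of genes with low levels is understated. The 2 groups did not overlap in 9 models, whereas over all pairs of a gene and a model 31% did not overlap. In Renca the Base tumors had 4.04, 4.48 and 5.72 TPM and the NT tumors 19.0, 15.2 and 16.7 TPM, a fold of 3.14 on the TPM + 1 scale. In Hepa 1-6, LL/2 and MC38 the groups overlapped, and the values lay within the spread between tumors.

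Dbp, a D-box factor that follows the clock, fell. Base tumors ran from 2.69 to 69.2 TPM with a median of 10.3, and NT tumors from 1.62 to 27.6 TPM with a median of 3.71. The mean difference was -1.22 (SE 0.065, adjusted p = 4.98e-20 by limma), with NT lower in 11 of 12 models and no overlap in 10. The widest gap was in CT26.WT, where Base tumors had 54.1, 57.3 and 69.2 TPM and NT tumors 5.80, 9.28 and 2.64 TPM. Here the within-model fold change was -3.26 on the log2 scale but missed the threshold (adjusted p = 0.0682 by limma). In RAG the Base tumors had 22.2, 32.3 and 26.4 TPM and the NT tumors 27.2, 26.7 and 27.6 TPM, so that the groups overlapped. B16-F10 also overlapped, at 2.69 to 3.76 TPM in Base and 2.69 to 3.62 TPM in NT tumors.

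Tef, a second D-box factor, had a median of 26.5 TPM in Base and 13.7 TPM in NT tumors, and ranged from 4.93 to 62.8 and from 3.48 to 37.6 TPM. It fell by 0.81 on the log2 scale (SE 0.049, adjusted p = 5.66e-18 by limma) and was lower in 12 of 12 models with no overlap in 7. In B16-F10 the Base tumors had 33.4, 37.0 and 34.4 TPM and the NT tumors 37.6, 31.4 and 35.8 TPM, so that its small difference lay within the spread. Per3, a period gene, fell by 0.68 (SE 0.047, adjusted p = 1.56e-15), from a median of 6.07 to 3.01 TPM. Per2, which represses the activators, fell by 0.59 (adjusted p = 1.27e-08).

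Of the 20 clock genes, 17 passed the filter on low values, and 3 rose and 8 fell. Among all 17428 genes tested, 17% were called higher and 11.5% lower. Besides Arntl, those that rose were Nfil3, a repressor at D-boxes (0.30, adjusted p = 5.17e-05), and Clock (0.10, adjusted p = 0.00219), and besides those named above the genes that fell were Nr1d1 (-0.46), Nr1d2 (-0.35), Cry2 (-0.27) and Ciart (-0.16, adjusted p = 0.0377). Ciart was no longer called when any of Hepa 1-6, RAG, LL/2, KLN205, EMT6 or MBT2 was left out (-0.13 without KLN205). Per1, Cry1, Rora, Bhlhe40 and Bhlhe41 were among those not called. After rescaling of the tumors by the upper quartile or over protein-coding genes, 2 of the 17 rose and 9 fell, with Clock no longer called, and 5 rose without LL/2 or without MBT2. The list was written after results of these data had been seen, so its count is a description only. The differences in Arntl, Dbp and Tef varied between models by the F test (adjusted p = 7.43e-09, 1.7e-11 and 1.21e-11).

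**Figure D1:**
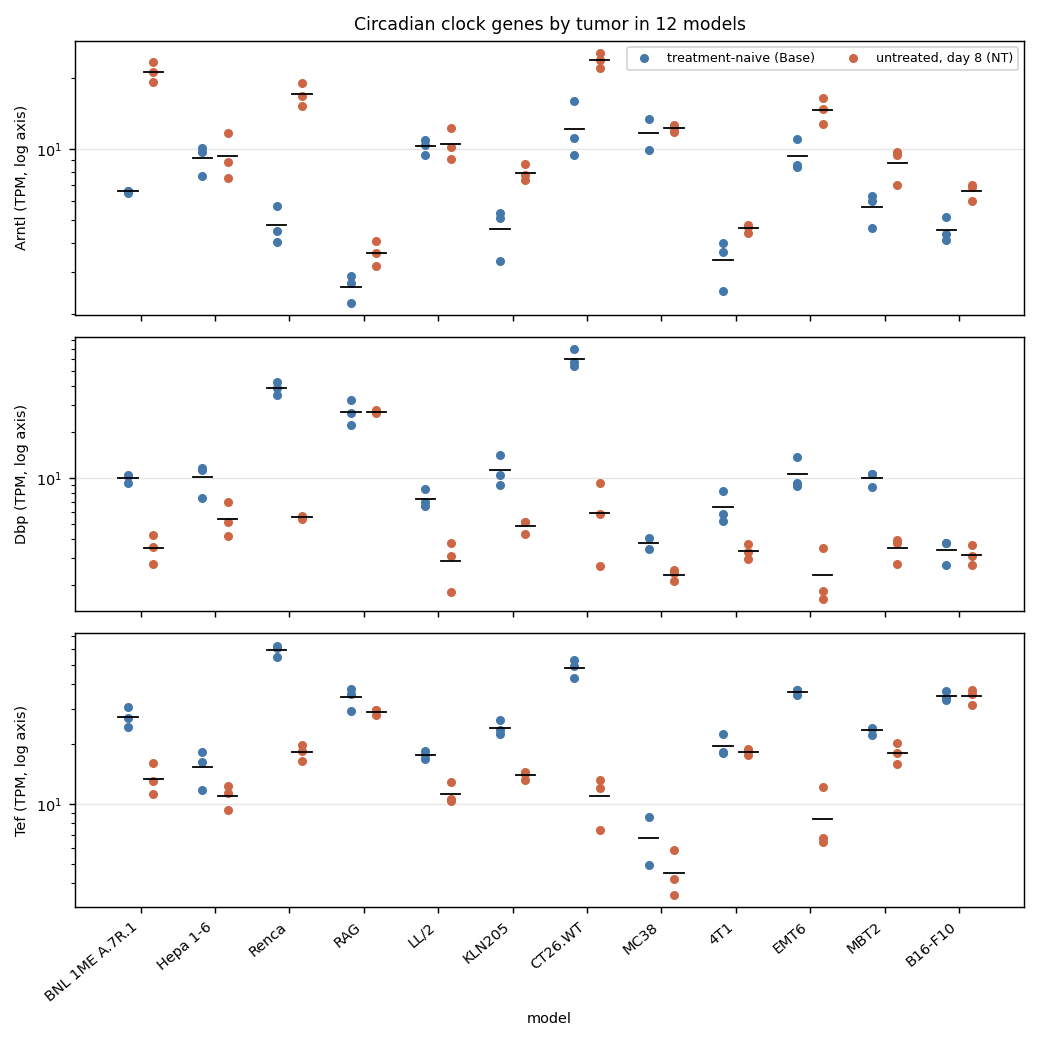
Level of Arntl, Dbp and Tef in each tumor (TPM, log axis) for the 12 models, with treatment-naive tumors in blue, untreated day 8 tumors in red and a line at the group mean. Arntl sits higher on day 8 in Renca and BNL 1ME A.7R.1, and Dbp sits lower in 11 of 12 models, with overlap in RAG and B16-F10.

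In the mean over models, 2971 genes were higher on day 8 and 2002 were lower, and 7 and 30 of them differed by at least 1 on the log2 scale. The larger differences were therefore mostly falls. The split of directions depended on the scaling of the tumors: rescaling by the upper quartile gave 1421 higher and 3516 lower, and rescaling over protein-coding genes gave 1203 higher and 3844 lower. The test uses the spread between tumors within a model, and when the 12 within-model differences were taken as the replicates, 3 genes were called higher and 2 lower (874 and 1279 at an unadjusted p under 0.05). The 5 were the pseudogenes Rps13-ps2 (0.98), Rps27a-ps2 (0.82) and Gm10275 (0.54), whose reads can be shared with their parent genes, and Gm17334 (-0.62) and Mcmdc2 (-0.48), and they are named after their values were seen. No member of any gene list and no other gene named here was called in that test, so the adjusted p-values on the mean describe these 12 models. The differences varied between models for 11587 genes by the F test, 66.5% of those tested.

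The composition of the libraries differed between the groups in the mean, unevenly among models. The number of genes with at least 1 TPM was lower on day 8, at a mean of 15567 against 15930 (adjusted p = 0.0002 by a permutation test of the labels within models, lower in 10 of 12 models). The share of transcripts of the mitochondrial chromosome was 7.11% against 6.08% and that of the small non-coding RNAs Rn7s1 and Rn7sk 19.6% against 21.1% (both adjusted p = 0.0119), and the share of protein-coding genes was 52.2% against 50.2% (adjusted p = 0.0544). The first of these was higher in 7 of 12 models, the second in 5 and the third in 6. The mitochondrial difference of 1.03 percentage points was 0.65 without RAG, and that of Rn7s1 and Rn7sk, -1.50, was -0.96 without EMT6. The protein-coding difference of 2.04 was 0.94 without EMT6 and 1.25 without KLN205. The 13 protein genes of the mitochondrial genome did not share the mitochondrial rise, as 3 were called lower and 0 higher. Their summed level had a median of 30498 TPM in Base and 28644 TPM in NT tumors. The NT median of this sum was lower in 9 models and higher in 3. Which other mitochondrial transcripts carried the rise was not tested. The part of these shifts in the gene results was not tested beyond the rescaled fits. By correlation of expression, each of the 71 tumors was nearest to a tumor of its own model, and 65 to one of its own model and group.

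Of the lists described, skeletal muscle had the lowest median. Of 20 muscle genes, 19 fell, beside 11.5% of all genes called lower, and Eno3, a muscle enolase, was not called (-0.02). The list median was -1.06 on the log2 scale, beside 0.01 over all genes tested. Myh4, a fast myosin heavy chain, ran from 0 to 83.0 TPM with a median of 9.54 in Base tumors and from 0 to 23.1 TPM with a median of 2.12 in NT tumors. It fell by 1.38 (SE 0.18, adjusted p = 2.45e-07 by limma) and was lower in 11 of 12 models. Ckm, muscle creatine kinase, fell by 1.33, Ttn, titin, by 1.22, and Acta1, skeletal actin, by 1.23.

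The summed level of the 20 muscle genes ran from 20.5 to 1165 TPM with a median of 227 in Base tumors, and from 19.9 to 280 TPM with a median of 119 in NT tumors. All NT tumors lay below all Base tumors in 5 models. Among single genes, 31% of all pairs of a gene and a model did not overlap, in either direction. In B16-F10 the Base tumors had 179, 224 and 227 TPM and the NT tumors 19.9, 23.99 and 55.0 TPM. In KLN205 and CT26.WT the median of the NT tumors was above that of the Base tumors, at 134 against 87.0 and 125 against 92.8 TPM, and the groups overlapped. In KLN205 2 muscle genes were called higher, where 28.3% of all genes were. The treatment-naive tumors of one model differed widely among themselves, as in Hepa 1-6, where they ran from 33.5 to 287 TPM.

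Genes of fat fell alongside. Of 15 adipocyte genes, 11 passed the filter and all 11 of these fell, with a median of -0.72. Of all genes, 11.5% were called lower. Car3, a carbonic anhydrase abundant in fat and muscle, had a median of 12.0 TPM in Base and 4.00 TPM in NT tumors and fell by 1.56 (SE 0.21, adjusted p = 4.19e-07 by limma). Cfd, adipsin, went from a median of 9.83 to 1.82 TPM and fell by 1.53 (adjusted p = 7.52e-07), and the hormone gene Adipoq fell by 0.82. Fabp4, a fatty acid carrier, fell by 0.99 and Cidec, of the lipid droplet, by 0.86, both lower in 11 of 12 models. All NT tumors lay below all Base tumors in the summed level in 9 models, and the exceptions were KLN205, CT26.WT and RAG. Single genes were without overlap, in either direction, in 31% of all pairs of a gene and a model. Genes of connective tissue fibroblasts shared the direction in part, with 9 of 14 lower and a median of -0.37, among them Clec3b (-0.98), Dpt (-0.95) and the proteoglycan gene Dcn (-0.65). Without the 4 models that had over 1000 genes called (BNL 1ME A.7R.1, KLN205, EMT6 and Renca), 14 of 20 muscle genes and 8 of 10 adipocyte genes were lower. This alternative was chosen after seeing the data. In that fit 451 of all genes were higher and 1164 lower, against 2971 and 2002 over the 12 models. The list counts of that fit, here and below, are to be read beside these totals. The part of muscle, fat and connective tissue in the other results was not tested.

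**Figure D2:**
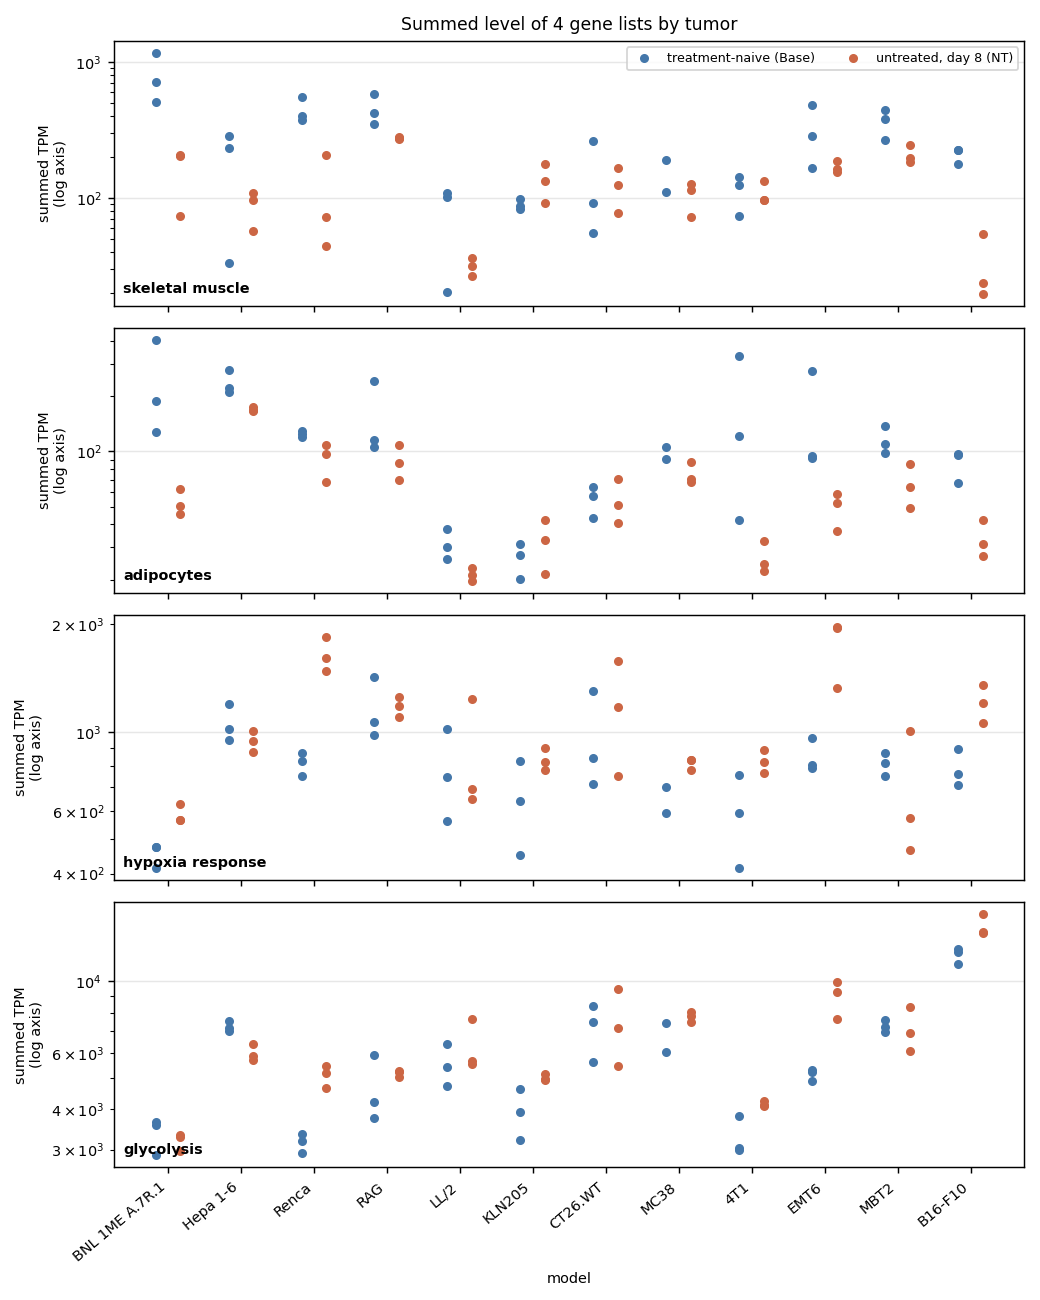
Summed TPM of the genes of 4 lists in each tumor (log axis) for the 12 models, with treatment-naive tumors in blue and untreated day 8 tumors in red. Muscle genes fall below the range of the treatment-naive tumors in B16-F10 and BNL 1ME A.7R.1, and the hypoxia and glycolysis lists stand above it in EMT6 and Renca.

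Genes of the hypoxia response and of glycolysis rose in the mean. Of 20 hypoxia genes, 14 rose and 2 fell, with a median of 0.31, beside 17% of all genes called higher and 11.5% called lower, so that the falls were near the share of all genes. Bnip3, a mitochondrial receptor for autophagy, rose from a median of 76.0 to 106 TPM (0.51, SE 0.094, adjusted p = 5.17e-05 by limma). Ero1l, an oxidoreductase of the endoplasmic reticulum, rose by 0.49, the glucose transporter gene Slc2a1 by 0.42 and the oxygen sensor gene Egln1 by 0.36, while Vegfa (0.10) and Car9 (0.21) were not called. Pfkfb4 (-0.21) and Stc2 (-0.25) fell, and without MC38 1 hypoxia gene was lower. Of 13 glycolysis genes, 11 rose and none fell (Pfkp and Slc16a3, at 0.08 and 0.16, were not called), with a median of 0.22, among them Pfkl (0.37), Hk2 (0.33) and Ldha (0.27).

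These rises were unequal among models. In EMT6, 15 hypoxia genes and all 13 glycolysis genes were called higher, and 9 of each in Renca, against 17.2% and 0.784% of all genes in these models. In Renca, Bnip3 had 32.1, 24.4 and 22.6 TPM in Base and 121, 119 and 113 TPM in NT tumors, a within-model log2 difference of 2.13 (adjusted p = 0.000667 by limma). In Hepa 1-6, MBT2, RAG, LL/2, CT26.WT, MC38 and 4T1 no gene of either list was called, but few genes of any kind were called in most of these models. The summed level put all NT tumors above all Base tumors in 6 models for each list, MC38 and 4T1 among them for both, where 31% of all pairs of a gene and a model did not overlap in either direction. In MC38 the hypoxia genes summed to 590 to 700 TPM in Base and 782 to 834 TPM in NT tumors. In Hepa 1-6 the glycolysis genes went the other way, from 6998 to 7553 TPM in Base and 5682 to 6368 TPM in NT tumors. Without BNL 1ME A.7R.1, KLN205, EMT6 and Renca, 1 hypoxia gene and 2 glycolysis genes were called higher, with medians of 0.17 and 0.13. In that fit 451 of all genes were higher, against 2971 over the 12 models. The letters ACGTG, the core of the hypoxia response element, which also lie within the E-box, were found in 14 of the 24 promoters that the table holds for 17 of the hypoxia genes, and in 19.6% of all promoters.

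The vessel genes moved in both directions. Of 20 endothelial genes 13 fell and none rose, with a median of -0.20, beside 11.5% of all genes called lower. Cd34, a surface protein of vessels and of fibroblasts, fell by 0.42 (adjusted p = 2.44e-06 by limma), Tek, the angiopoietin receptor, by 0.37 and Pecam1, or CD31, by 0.32. Of the 6 genes of the MVD gene score, which the study built to estimate microvessel density, Kdr (-0.18) and Tek fell, and Cdh5 (-0.10), Eng (-0.14), Pcdh12 (-0.05) and Sparcl1 (0.09) were not called. Kdr was not called without Renca (-0.10), LL/2 or EMT6. Under both rescalings, 4 of the 6 were lower, beside 3516 of 17473 (upper quartile) and 3844 of 17487 (protein-coding) of all genes. Sparcl1 moved in opposite directions, from 72.2 to 80.0 TPM in Base and 245 to 311 TPM in NT tumors of BNL 1ME A.7R.1, and from 27.5 to 35.5 and 17.8 to 22.3 TPM in Renca. In Renca 15 endothelial genes were called lower, against 7.08% of all genes. Without Renca the mean gave 8 lower endothelial genes, and without the 4 models with over 1000 calls 7, where 1164 of all genes were lower. The lower MVD score genes were 1 without Renca or without EMT6.

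Of 12 genes of endothelial tip cells, which lead new vessel sprouts, 4 rose, beside 17% of all genes. Esm1 had a median of 2.14 TPM in Base and 3.96 TPM in NT tumors and rose by 0.54 (SE 0.091, adjusted p = 1.38e-05 by limma), with NT higher in 11 of 12 models. The peptide gene Apln rose by 0.39, Adm, the gene of adrenomedullin, by 0.50, and the growth factor gene Pgf by 0.32, and Adm stands on the hypoxia list too. Without the 4 models with over 1000 calls, 1 of the 12 was higher, where 451 of all genes were. In B16-F10 Esm1 had 3.46, 2.48 and 2.14 TPM in Base and 10.7, 7.14 and 9.92 TPM in NT tumors.

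The immune genes that were called mostly fell, and 11.5% of all genes were called lower. Of 9 monocyte genes 6 fell, with a median of -0.60, among them Ly6c2 (-0.81) and Ccr2, the receptor for monocyte recruitment (-0.55). Of 12 dendritic cell genes 10 were tested and 9 fell, among them Clec10a (-0.89) and Ccr7 (-0.32). Of 18 macrophage genes 17 were tested, 7 fell and Apoe, an apolipoprotein, rose (0.33), but without BNL 1ME A.7R.1 its difference was 0.14 and it was not called. The macrophage genes that fell included Cd163, a haemoglobin scavenger receptor of resident macrophages, at -0.95 (SE 0.13, adjusted p = 3.26e-07 by limma), Cd209f at -0.70 and Mrc1 at -0.44, while C1qa, C1qb and Csf1r were not called. Ccl8, a chemokine of such cells, ran from 32.5 to 1088 TPM with a median of 253 in Base and from 11.9 to 697 TPM with a median of 78.1 in NT tumors, and fell by 1.22 (SE 0.16, adjusted p = 1.12e-07). Retnla, an alternative activation marker, fell by 1.11, and Rarres2, the chemerin gene, by 1.08. The summed levels of these lists, in which the most abundant genes weigh most, went both ways among models. All NT tumors lay above all Base tumors in 4 models and below them in 5 for dendritic cell genes, and above in 6 and below in 3 for macrophage genes, beside 31% of all pairs of a gene and a model without overlap. For monocyte genes they lay above in 3 and below in 4, and the median over all tumors was 798 TPM in Base and 1004 TPM in NT tumors. In BNL 1ME A.7R.1 the macrophage genes summed to 689 to 1074 TPM in Base and 2480 to 2726 TPM in NT tumors, and in LL/2 to 2385 to 2534 and 1352 to 1452 TPM. Without the 4 models with over 1000 calls, 6 monocyte, 5 dendritic cell and 8 macrophage genes were lower, where 1164 of all genes were.

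T cell genes fell in 10 of 14 tested of 16, with a median of -0.31 and beside 11.5% of all genes, while Cd8a (-0.02) and Cd8b1 (-0.05) were not called. Of 15 cytotoxic and NK cell genes 11 were tested and 6 fell, with Gzma, granzyme A, at -0.90 (adjusted p = 1.58e-06 by limma). Of 15 checkpoint and costimulation genes 10 fell, among them Pdcd1lg2, or PD-L2 (-0.62), and the regulatory T cell factor Foxp3 (-0.33, NT lower in 11 of 12 models), whereas Pdcd1 (-0.01) and Lag3 (-0.07) were not called. Of the 18 genes of the T cell-inflamed profile 9 fell and none rose. Of 17 interferon gamma genes 5 fell, among them Socs1 (-0.61) and Cxcl9 (-0.75, adjusted p = 0.025, but not called without Hepa 1-6 or without Renca), and of 16 type I interferon genes none was called (0 higher and 0 lower). The median summed level of the interferon gamma genes was nevertheless higher in NT tumors in 7 models and lower in 5. Of 10 MHC class II genes 8 were tested and 4 fell. These counts rested in part on single models. Without Hepa 1-6 the lower genes were 3 of the T cell-inflamed profile, 2 of interferon gamma and 2 of MHC class II, and without Renca 5, 2 and 1. Without B16-F10 2 MHC class II genes and 3 interferon gamma genes were lower, the latter also without CT26.WT, MC38 or EMT6. Without LL/2 4 type I interferon genes were lower. Without the 4 models with over 1000 calls, 9 T cell, 3 cytotoxic and NK cell and 8 checkpoint genes were lower. So were 5 of the T cell-inflamed profile, 2 of interferon gamma and 2 of MHC class II, where 1164 of all genes were.

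Matrix genes fell in 7 of 17, beside 11.5% of all genes. After protein-coding rescaling 11 fell, beside 3844 of 17487 of all genes. BNL 1ME A.7R.1 went the other way. In this model 16 matrix genes were called higher, against 23.6% of all genes, and the summed level went from 8058, 8516 and 8579 TPM in Base to 15916, 17157 and 18269 TPM in NT tumors. In Renca it went from 2992, 3428 and 4362 to 980, 1074 and 1626 TPM, and 15 were called lower, against 7.08% of all genes. Without BNL 1ME A.7R.1 the mean gave 13 lower matrix genes, without MC38 11 and without Renca 3.

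Few genes of cell division were called in the mean. Of 18 DNA replication genes 1 was called higher and none lower, and of 16 mitosis genes none was called (medians of -0.0035 and 0.0063). The differences varied between models for 15 of the replication and 9 of the mitosis genes by the F test, against 66.5% of all genes. In the summed level, all NT tumors lay above all Base tumors in 2 models and below them in 2 for replication genes. For mitosis genes they lay above in 2 and below in 1. Among single genes, 31% of all pairs of a gene and a model did not overlap, in either direction. Leaving out a model gave 0 to 3 higher replication genes (3 without LL/2), and 2 were lower without RAG. Without LL/2 1 mitosis gene was higher. After upper-quartile rescaling 3 replication genes and 1 mitosis gene were lower, and after protein-coding rescaling 4 and 3. In these fits 3516 of 17473 and 3844 of 17487 of all genes were lower, and 1421 and 1203 were higher. Mki67, the proliferation marker, ran from 22.6 to 96.1 TPM in Base and from 27.0 to 98.7 TPM in NT tumors. Of the other lists, to be read against the 17% of all genes called higher and 11.5% called lower, 3 of 12 integrated stress response genes and 5 of 16 immediate early genes rose, 3 of the 13 protein genes of the mitochondrial genome fell, and 2 of 12 tested neutrophil genes and 4 of 6 tested mast cell genes fell. No gene of red blood cells, epidermis or hepatocytes was called. Single models moved several of these counts. The stress response had 9 higher genes without Hepa 1-6, 7 without MBT2, 6 without LL/2 and 5 without CT26.WT, and the immediate early genes 2 without BNL 1ME A.7R.1 or without EMT6 and 2 after either rescaling. Without the 4 models with over 1000 calls, 0 stress response and 1 immediate early gene were higher, where 451 of all genes were. In that fit 0 mitochondrial, 1 neutrophil and 0 mast cell genes were lower, where 1164 of all genes were. Lower mitochondrial genes were 6 without MC38 and 5 without RAG, lower neutrophil genes 4 without 4T1, and lower mast cell genes 2 without BNL 1ME A.7R.1 or MBT2 and 1 without MC38 or B16-F10. Lower epidermis genes were 3 without CT26.WT, 2 without KLN205 and 1 without EMT6 or MBT2, and 1 hepatocyte gene was lower without RAG or LL/2 and 1 higher without Renca.

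**Figure D3:**
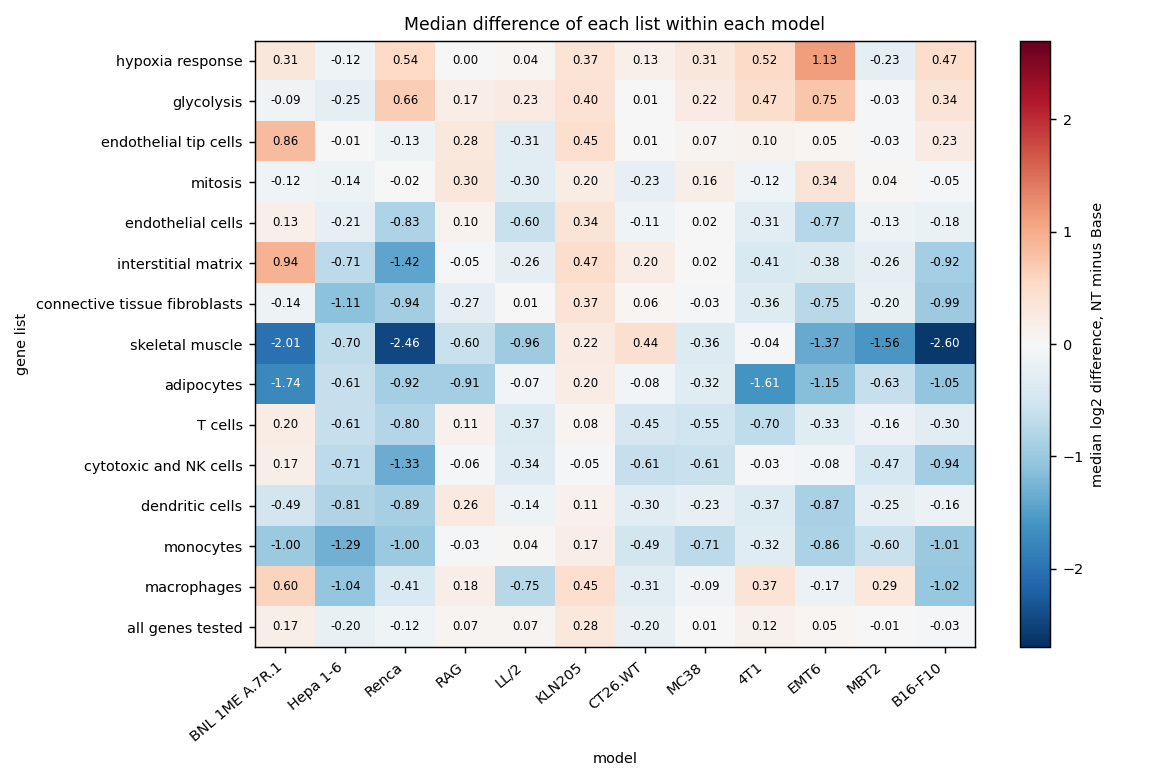
Median within-model log2 difference (NT minus Base) of 14 gene lists and of all genes tested, in each of the 12 models, on a colour scale from blue (lower on day 8) to red (higher). Muscle is lowest in B16-F10 (-2.60) and Renca (-2.46), hypoxia highest in EMT6 (1.13), and the median of all genes runs from -0.20 to 0.28.

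The count of genes called within a model was uneven, and the order of the models depended on the fit. With the spread of the joint fit, 3595 genes were called in Hepa 1-6 and 2565 in 4T1, above the 2004 of Renca, and leaving out 1 tumor moved the count in Hepa 1-6 to between 7 and 1693. The counts that follow are from each model fitted alone. Of the genes tested, in KLN205 4701 genes (28.3%) were higher and 84 (0.506%) lower, in BNL 1ME A.7R.1 3878 genes (23.6%) were higher and 773 (4.71%) lower and in EMT6 2808 genes (17.2%) were higher and 736 (4.51%) lower. Most calls were falls in Renca, where 129 genes (0.784%) were higher and 1165 (7.08%) lower, and rises in LL/2, where 575 genes (3.69%) were higher and 314 (2.02%) lower. Fewer genes were called in the other models: in B16-F10 38 genes (0.244%) were higher and 100 (0.641%) lower, in 4T1 63 genes (0.39%) were higher and 16 (0.0991%) lower and in Hepa 1-6 9 genes (0.054%) were higher and 45 (0.27%) lower. At the low end, in RAG 2 genes (0.0127%) were higher and 7 (0.0446%) lower and in CT26.WT 4 genes (0.0255%) were higher and 6 (0.0383%) lower, and in MC38 4 genes (0.0248%) were higher and 4 (0.0248%) lower and in MBT2 1 gene (0.00644%) was higher and 4 (0.0258%) lower. The median of all genes was shifted by 0.28 in KLN205, 0.17 in BNL 1ME A.7R.1, 0.12 in 4T1, -0.12 in Renca and -0.20 in Hepa 1-6 and CT26.WT. After rescaling by the upper quartile, KLN205 had 40 genes called (12 higher and 28 lower), BNL 1ME A.7R.1 1642 higher and 1570 lower, EMT6 892 higher and 2479 lower and Renca 625 higher and 906 lower.

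**Figure D4:**
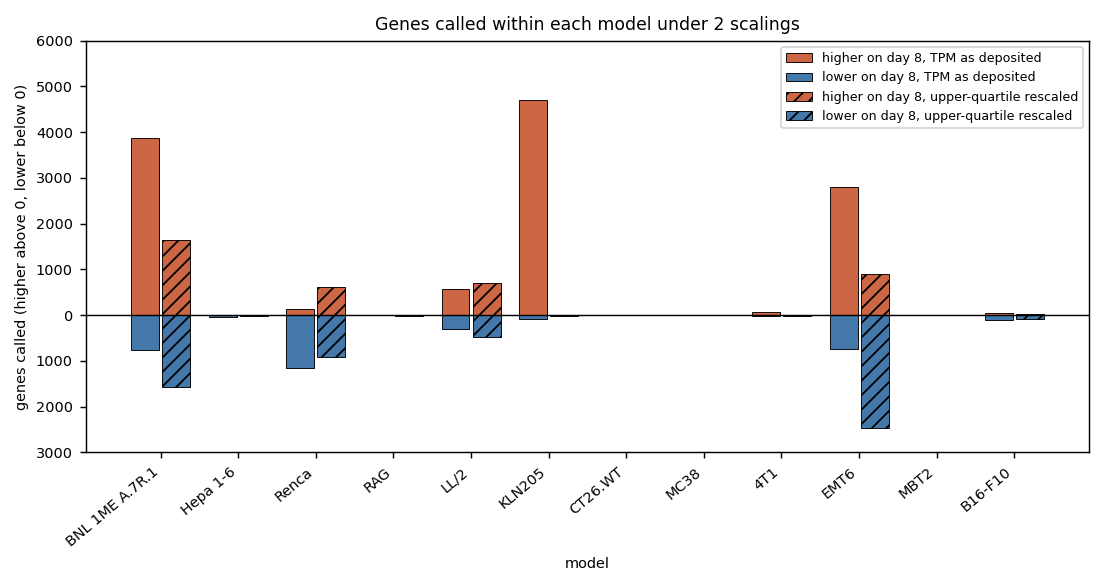
Genes called by limma within each of the 12 models, with those higher on day 8 above 0 and those lower below 0, for TPM as deposited (plain bars) and after upper-quartile rescaling (hatched bars). The 4701 higher genes of KLN205 become 12 after rescaling, and the lower genes of EMT6 rise from 736 to 2479.

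The protein-coding genes with the largest mean rises in at least 11 of 12 models, besides Arntl and Esm1, rose by less than those that fell. Sh3gl3, an endophilin, rose by 0.45 (adjusted p = 5.16e-09 by limma) from a median of 0.65 to 1.59 TPM. Pgm2, an enzyme of sugar phosphate metabolism, rose by 0.30, Echdc1, which clears side products of fatty acid synthesis, by 0.28, and Leo1, of the PAF transcription complex, by 0.27. Tmem106c rose by 0.27, Banp by 0.26, the tight junction gene Tjp1 by 0.26, the aldehyde dehydrogenase gene Aldh2 by 0.25 and the mitophagy receptor gene Bnip3l by 0.25. Rps12-ps3 rose by 0.37, but its reads can be shared with other copies. Among the falls, Car4, a carbonic anhydrase of capillaries, fell by 0.85, Mybpc2, a myosin binding protein, by 0.79, and the long non-coding RNA Meg3 by 0.80 with NT lower in 12 of 12 models.

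The genes of largest change differed between models. In LL/2, Crabp1, which binds retinoic acid, had 0.62, 0.31 and 1.10 TPM in Base and 49.2, 48.8 and 58.9 TPM in NT tumors (log2 difference 5.01, adjusted p = 0.000194 by limma). Krt8, a keratin of simple epithelia, went from 3.27, 15.3 and 6.05 to 78.1, 89.7 and 71.8 TPM in LL/2, and from 71.9, 83.2 and 76.8 to 17.9, 12.2 and 7.67 TPM in BNL 1ME A.7R.1. Its partner Krt18 did the same, up by 1.47 in LL/2 and down at -2.69 in BNL 1ME A.7R.1. In LL/2, Ptn, a growth factor gene, fell by 2.99 and Lyz1, a lysozyme, by 2.89.

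In BNL 1ME A.7R.1, Igfbp2, which binds insulin-like growth factors, had 0, 0.74 and 1.05 TPM in Base and 42.2, 52.2 and 28.0 TPM in NT tumors. In Renca it fell, from 20.0, 13.5 and 11.6 to 4.67, 3.42 and 8.10 TPM. Mgp, which inhibits calcification, rose by 2.71 in BNL 1ME A.7R.1 and fell by 2.86 in LL/2, and Mfap4, a microfibril protein gene, rose by 3.28 in BNL 1ME A.7R.1. Mme, the membrane peptidase, rose by 1.76 in BNL 1ME A.7R.1 and fell by 2.21 in LL/2. Prl2c2 and Prl2c3, prolactin family genes of near-identical sequence whose split is uncertain, fell in BNL 1ME A.7R.1. Prl2c2 went from 81.9, 83.3 and 65.4 to 4.89, 2.54 and 1.29 TPM. The ribosomal gene Rps9 rose in BNL 1ME A.7R.1, KLN205 and EMT6 and fell in Renca. In the mean over models 67 of 84 ribosomal protein genes were called higher and 1 lower, beside 17% and 11.5% of all genes. Of 112 ribosomal protein pseudogenes, 39 were higher and 2 lower. These classes were not counted after rescaling. In all, 1027 protein-coding genes with a difference between models were called in opposite directions in different models. These calls used TPM as deposited, where the median of all genes ran from -0.20 in CT26.WT to 0.28 in KLN205. Calls within models changed with rescaling, and this count was not repeated after it.

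In Hepa 1-6 Nos2, the inducible nitric oxide synthase, went from 93.4, 61.2 and 124 to 13.2, 5.24 and 15.8 TPM (-2.98, adjusted p = 0.0475 by limma), and Rgs5, a pericyte gene, rose by 1.07. In KLN205 Gzmd and Gzme, similar granzymes whose split is uncertain, rose by 1.81 and 1.97. In EMT6 Adm rose by 1.69 and Areg, amphiregulin, went from 10.2, 8.80 and 4.91 to 34.9, 23.7 and 19.7 TPM, and Clec10a and Cd163 fell by 2.57 and 2.54. In 4T1 Gadd45a, a stress gene, rose by 1.78 and Tigit fell by 1.15, in RAG the mitochondrial leucyl tRNA synthetase gene Lars2 rose by 2.59, in MC38 Mmp12, macrophage elastase, rose by 1.53, and in MBT2 Gzma fell by 1.40.

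For some of these genes the LEN tumors of the same day are given side by side, without a test because they share the NT tumors. In B16-F10, Car3 had 16.9, 10.97 and 15.6 TPM in Base, 1.31, 0.66 and 0.20 TPM in NT and a mean of 13.2 TPM in LEN tumors. In the same model Myl1, a muscle myosin light chain, had 9.84 to 16.97 TPM in Base, 0.11 to 1.5 TPM in NT and a mean of 16.7 TPM in LEN tumors. In Renca, Ccl8 had 253 to 320 TPM in Base, 32.5 to 40.6 TPM in NT and a mean of 35.1 TPM in LEN tumors, so that here LEN lay near NT. In BNL 1ME A.7R.1 the mean of Krt8 was 77.3 TPM in Base, 12.6 TPM in NT and 485 TPM in LEN tumors.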

How the data were processed

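Tumor RNA was sequenced after rRNA depletion. Per the labels' processing notes and the study's methods, the authors trimmed reads with Trimmomatic 0.36, mapped them with STAR 2.5.2b to GRCm38 (mm10) and ran RSEM 1.2.31 for quantification. The authors then deposited TPM for 50686 genes, with the same total in every tumor, so no depth or counting interval can be given. Gene types and positions were from GENCODE and promoters from RefSeq.

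Values were analyzed as log2(TPM + 1) by linear models with moderated variances that follow a trend on expression (limma 3.58.1, R 4.3.3). Genes were kept where the mean reached at least 1 TPM. The 71 tumors were fitted jointly as 24 groups, which gave the mean difference with equal weight for each of the 12 models and an F test of 11 contrasts, and each model was also fitted alone. Benjamini-Hochberg adjustment was applied, and genes under 0.05 were called. Library composition was tested two-sided with 100000 permutations of the labels within models. The tumors of a group came from different mice, so p-values measure the spread between mice of a model.

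Named genes were the 12 largest mean rises and falls among protein-coding genes called and changed the same way in at least 11 models, the 8 with the smallest F test p among genes called in opposite directions, the 2 largest rises and falls within each model with a mean of at least 5 TPM and no overlap, members of the gene lists, the genes of the MVD gene score with Pecam1, and Rn7s1 and Rn7sk. The members and lists were chosen with earlier results of these data known. Settings were varied by using 0.1 as pseudocount, dropping the minimum or raising it to 5 TPM, upper-quartile and protein-coding rescaling, no trend, the replicate number as a block, a common difference, models as replicates, the joint contrast for single models, and leaving out each tumor or model. Same-numbered tumors were different mice, and the deviations of 1 of 25 same-numbered pairs correlated above 0.1. The code was tested on simulated data. Tumor volumes and single-cell data were not analysed here.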

Additional observations from a re-analysis of the deposited data

Results flagged for a closer look

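The difference between NT and Base tumors varied among the 12 models for 11587 genes by the F test of limma. The p-values given for named genes are a description, since several of these genes were chosen for a small p in this test or for a large change within a model. The F test adjusted p was 5.08e-16 for Cryaa and for Mme, 1.48e-15 for Rps9, 1.56e-15 for Igfbp2 and 1.01e-14 for Krt8. It was 2.37e-14 for Krt18, Mgp and 1810037I17Rik, and 5.21e-13 for Crabp1.

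Among vessel genes the adjusted p was 2.65e-09 for Sparcl1, 3.27e-06 for the pericyte gene Rgs5, 0.000134 for Pcdh12 and 0.000311 for Cdh5. Among myeloid genes it was 7.59e-10 for C1qa, 2.71e-09 for C1qb, 4.67e-05 for Clec10a, 5.65e-05 for Nos2 and 0.000535 for Mmp12. For the growth factor gene Areg it was 4.94e-09, for the muscle genes Eno3 and Tnni2 6.09e-09 and 2.74e-05, for the matrix genes Mfap4 and Dpt 3.99e-06 and 0.000826, for the clock gene Per1 1.13e-05, and for the hypoxia genes Car9 and Vegfa 0.00314 and 0.0158. Cryaa, an alpha crystallin, had 3.22, 3.87 and 2.93 TPM in Base and 18.5, 16.3 and 15.8 TPM in NT tumors of BNL 1ME A.7R.1, against 3.12, 2.69 and 2.60 and 0.60, 1.64 and 0.48 TPM in EMT6. 1810037I17Rik rose by 1.06 in EMT6 and fell by 0.54 in LL/2.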

How the results depend on the processing

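The counts on the mean over models depended on the setting. With the within-model differences as replicates they were 3 higher and 2 lower, with the replicate block 1082 and 830 (4964 by the F test), with a common difference 1601 and 1326, after upper-quartile rescaling 1421 and 3516, after protein-coding rescaling 1203 and 3844, without the 4 models with over 1000 calls 451 and 1164 (6511 by the F test), and 951 were lower with a minimum of 5 TPM. With no minimum 2852 were higher and 2836 lower. Leaving out a tumor gave 2515 to 3351 higher and 1823 to 2210 lower, and leaving out a model 1765 (without KLN205) to 3891 and 1481 to 2341. Without EMT6 1950 were higher. The numbers pair no mice, and the block leaves 13 residual degrees of freedom.

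Within models, leaving out a tumor gave 2393 to 4277 calls in BNL 1ME A.7R.1, 7 to 1693 in Hepa 1-6, 454 to 665 in Renca, 6 to 19 in RAG, 106 to 725 in LL/2, 972 to 3840 in KLN205, 8 to 21 in CT26.WT, 3 to 81 in MC38, 9 to 42 in 4T1, 1873 to 2860 in EMT6, 3 to 29 in MBT2 and 29 to 184 in B16-F10. A lone remaining MC38 Base tumor was assumed to vary like the other group. With no minimum on TPM the calls were 5 in Hepa 1-6, 705 in Renca, 3 in RAG, 394 in LL/2, 1 in MC38, 14 in 4T1, 15 in MBT2 and 31 in B16-F10, and with a minimum of 5 TPM 724 in Hepa 1-6, 3 in MC38 and 333 in 4T1. A pseudocount of 0.1 gave 232 in Hepa 1-6. Upper-quartile and protein-coding rescaling gave 29 and 27 in Hepa 1-6, 14 and 14 in RAG, 40 and 41 in KLN205 and 17 and 16 in 4T1, and protein-coding rescaling 1340 in LL/2. Without the trend there were 9 in Hepa 1-6, 16 in MC38, 12 in 4T1 and 3 in MBT2. The joint fit gave 3595 in Hepa 1-6, 2004 in Renca, 846 in RAG, 2264 in LL/2, 1183 in CT26.WT, 141 in MC38, 2565 in 4T1, 5801 in EMT6, 58 in MBT2 and 370 in B16-F10, and with the replicate block 2540 in BNL 1ME A.7R.1, 1890 in Hepa 1-6, 5 in RAG, 1480 in LL/2, 764 in KLN205, 17 in CT26.WT, 16 in MC38, 1631 in 4T1, 9 in MBT2 and 21 in B16-F10.

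Of the list counts, a pseudocount of 0.1 gave 1 lower neutrophil gene, 5 lower lenvatinib target receptors, 3 lower nerve genes and 0 lower melanocyte genes. Upper-quartile and protein-coding rescaling gave 0 and 0 higher DNA replication genes, 1 and 3 lower mitosis genes, 5 and 6 lower mitochondrial genes, 4 and 4 lower MVD score genes, 2 and 2 lower lymphatic genes, 5 and 5 lower target receptors, 1 and 1 lower epidermis genes, 3 and 3 lower nerve genes and 2 and 2 higher immediate early genes, and protein-coding rescaling 1 lower type I interferon gene and 11 lower matrix genes. The sign of the mean turned for Igfbp2 without BNL 1ME A.7R.1 (-0.067, against up to 0.49 without another model), for Mgp without LL/2 (0.24, against down to -0.27) and for Crabp1 without LL/2 (-0.35, against up to 0.29), and without the 4 models for 1810037I17Rik (-0.094) and Rn7s1 (0.014). The causes were not tested. TPM keep no depth, so the precision of low genes is unknown.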
